A study of Mus musculus with 16 samples.

Results

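Newly made RNA of mouse embryonic stem cells carrying AID-Zzz3 was compared with that of WT cells, in 4 of the 16 libraries of the series. All mouse genes past a count filter were used: 14529 of the 28585 genes listed for these libraries. AID is a degron, a tag through which the plant hormone auxin drives destruction of the tagged protein. The AID-Zzz3 group was 2 clones, and the WT group was 2 lines, of which replicate 2 overexpressed Tir1 and BirA (the labels' "Tir1/BirA o/e") and replicate 1 did not. The labels do not say whether the clones carry that transgene, so its effect and that of the degron cannot be told apart in any value below. All 4 cultures were E14 embryonic stem cells and received auxin (IAA) for 24 h, WT included. They were grown with serum, leukaemia inhibitory factor and the inhibitors CHIR99021 and PD0325901. The uridine analogue 4-thiouridine (4sU) was given for the last 15 min, so that only RNA made in that time could be pulled down and sequenced. Labelled S. pombe cells served as a spike-in. Each clone is a cell population grown from a separate founder, so p-values measure the spread between 2 clones and between 2 WT lines that differ in a transgene. Levels of Zzz3 protein were not analysed here.

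Zzz3, a protein with a ZZ-type zinc finger, is a subunit of ATAC, a coactivator complex that brings a histone acetyltransferase to promoters. ATAC shares its acetyltransferase module (Kat2a or Kat2b with Tada3 and Sgf29) with SAGA, whose core includes Supt7l, and it also holds another acetyltransferase, Kat14, and the acetyl-lysine reader Yeats2. Promoters of ribosomal protein genes, which are among the most active of a dividing cell, are a known place of ATAC binding.

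The libraries held 8268061 to 13003804 mouse gene counts and 803588 to 1239015 spike-in counts, with AID-Zzz3 clone 1 the lowest of the 4 in both. The transcript with most counts, Gm26917, took 6.23 to 8.25% of mouse counts. Mitochondrial genes took 0.656 and 0.721% in WT and 0.889 and 0.852% in the clones. Counts of the 2 members of each pair differed by more than sampling noise, with a mean chi-square per gene of 12.3 in WT and 6.97 in AID-Zzz3. Between a WT line and a clone it ran from 10.2 (WT replicate 2 and clone 2) to 18.3 (WT replicate 1 and clone 1). The WT lines thus differed from each other by as much as some WT and clone pairs did. The 9 listed embryonic stem cell markers, Nanog, Esrrb and Zfp42 among them, summed to 2629 to 2955 CPM (counts per 1e+06 counts) and were detected in every library. Summed levels of the other marker lists were far lower. They were 431 to 605 CPM for primitive endoderm (of which Lama1 gave 246 to 454) and 56.7 to 85.4 for fibroblasts (of which Fbln1 gave 55.9 to 83.7). They were 38.8 to 49.7 for trophectoderm, 25.2 to 42.3 for neural cells and 9.65 to 17.9 for mesoderm. Markers of the 2-cell-like state summed to 1.18 and 0.919 CPM in WT and 3.51 and 3.15 CPM in the clones. Clone 1 was the highest of the 4 for the neural and fibroblast lists, the latter nearly all Fbln1. The part of the marker genes in the results was not tested. In clone 1 the Y-linked genes Uty (208 CPM) and Ddx3y (50.5 CPM) were also the lowest of the 4 libraries, against 401 to 655 CPM and 90.3 to 128 CPM in the other 3.

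The yield of new mouse RNA was lower in both clones than in either WT line. WT libraries had 14.2 and 12.9 mouse counts per S. pombe count after scaling (13.6 ± 0.881, SD, n = 2), and AID-Zzz3 libraries had 10.5 and 10.6 (10.5 ± 0.0859, SD, n = 2). The groups did not overlap, and the clones stood at 77.7% of WT, a log2 difference of -0.36. The exact permutation test (two-sided) gave p = 0.333, the smallest that 2 against 2 libraries allow. In bulk samples of this kind, fewer mouse cells per spike-in cell and less new RNA per cell cannot be told apart. Fold changes below come from TMM scaling, which sets the bulk of mouse genes to no change. With spike-in scaling the all-gene median went from 0.00 to -0.36, and a fall or rise below is relative to the other mouse genes unless spike-in scaling is named.

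**Figure D1:**
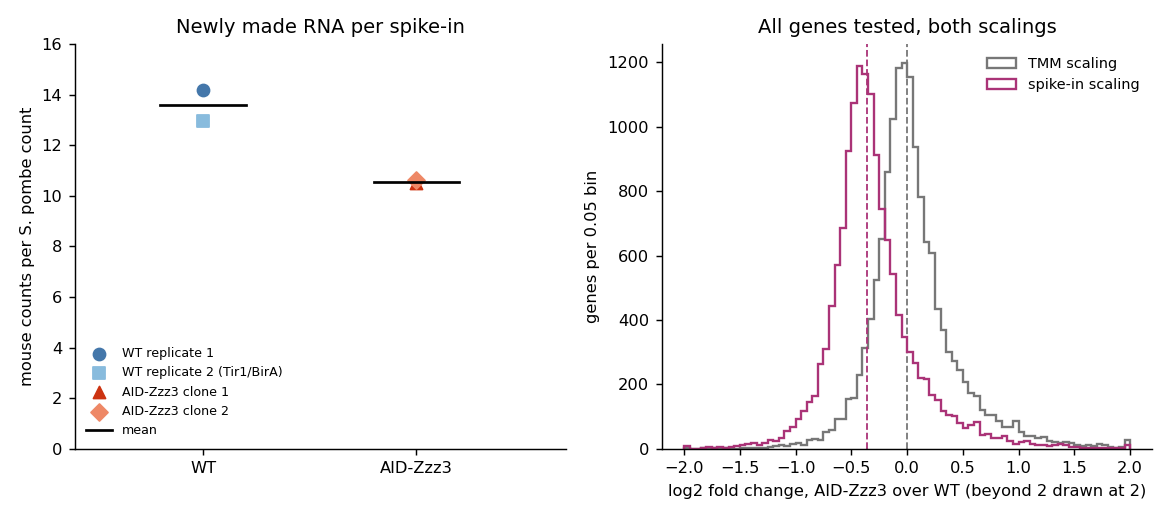
Left, mouse counts per S. pombe count (y axis, linear from 0) in each WT and AID-Zzz3 library, with bars at the group means of 13.6 and 10.5. Right, number of genes per bin (y axis) by log2 fold change of AID-Zzz3 over WT (x axis) under TMM and spike-in scaling, with dashed lines at the medians of 0.00 and -0.36; the whole distribution lies further left under spike-in scaling.

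Under TMM scaling 99 genes rose (0.681% of the 14529 tested) and 44 fell (0.303%) in AID-Zzz3 cells, 0.984% in either direction, at an adjusted p under 0.05 in edgeR's quasi-likelihood test. At an unadjusted p under 0.05 there were 1869 genes. Ribosomal protein genes were 17 of the 44 falls, and targets of p53 were 9 of the 99 rises. Under spike-in scaling 129 genes rose (0.888%) and 3584 fell (24.7%), and 127 of the 143 genes called under TMM were called in the same direction. The counts moved with each library: without clone 1 12 genes rose and 2 fell, and without clone 2 it was 34 and 31. Without WT replicate 1 it was 138 and 74, and without WT replicate 2 288 and 176, each fit taking the spread of the single remaining library from the other group.

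Zzz3 itself (mm10 chromosome 3, 152395473 to 152462826) was still transcribed. It stood at 430.3 and 448 CPM in WT and at 288 and 299.8 CPM in the clones. Both clones lay below both WT lines, and the difference was -0.58 ± 0.09 on the log2 scale (SE, n = 2 per group; edgeR adjusted p = 0.0340). Gene counts cannot tell whether the tagged allele gives a complete transcript. None of the 3 nearest tested genes on each side of Zzz3 was called. On the side of lower coordinates, Gm42967 had a log2 fold change of -0.96 (edgeR adjusted p = 0.367), Gm43859 -0.03 and Gm43857 -0.11. On the other side, Ak5, which encodes an adenylate kinase and overlaps the end of Zzz3 by position, had 0.10, Pigk, a subunit of the enzyme that attaches glycolipid anchors, -0.07, and the sialyltransferase gene St6galnac3 0.02.

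Other genes of ATAC, SAGA and the basal machinery moved little. Of 9 ATAC-specific subunit genes, Zzz3 was the one called, and the others ranged from -0.36 (Pole3) to 0.18 (Kat14). Of the shared acetyltransferase module, Kat2a had 0.20, Kat2b -0.03, Tada3 -0.02 and Sgf29 0.03, and Tada2b, the adaptor of the SAGA form of the module, had -0.54, none of them called. Of 18 SAGA genes, Sf3b3 alone was called. Sf3b3, which also belongs to the SF3b part of the splicing machinery, stood at 473 and 475 CPM in WT and 274 and 291 CPM in the clones (-0.75 ± 0.09, SE, n = 2 per group; edgeR adjusted p = 0.0195). Medians were 0.04 over 13 TFIID genes and -0.05 over 13 RNA polymerase II subunit genes, with none called in either.

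Genes of cytosolic ribosomal proteins, which form the body of the ribosome, gave the largest group of falls. In all, 17 of the 77 tested fell and none rose, where 0.303% of all genes fell. The count was 9 of 44 for the large subunit and 8 of 33 for the small subunit. The median log2 fold change was -0.65 for the large and -0.53 for the small subunit, beside 0.00 for all genes, and 75 of the 77 values were below 0. Both clones lay below both WT lines for 61 of the 77, where 21.9% of all genes did. The median of WT replicate 2 against WT replicate 1 was -0.12 over the same genes.

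The promoters of falling ribosomal protein genes are shown for those that carry a run of pyrimidines across the start of transcription, the known feature of this gene class, in 6 of the 12 that could be matched. The windows hold 60 bases before and 20 bases from the most upstream RefSeq start of each gene (GRCm38.p6, the assembly behind mm10), 5′ to 3′ on the gene's strand. Capitals mark an unbroken run of at least 6 C or T that includes the first transcribed base.
Rps18 (chr17:33955646-33955725, minus strand): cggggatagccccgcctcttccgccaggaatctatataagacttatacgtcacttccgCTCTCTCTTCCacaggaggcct
Rpl35 (chr2:39005112-39005191, minus strand): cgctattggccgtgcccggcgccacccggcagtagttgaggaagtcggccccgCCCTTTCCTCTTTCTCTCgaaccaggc
Rack1 (chr11:48800300-48800379, plus strand): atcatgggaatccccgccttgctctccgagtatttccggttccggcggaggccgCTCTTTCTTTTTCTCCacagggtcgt
Rps24 (chr14:24490618-24490697, plus strand): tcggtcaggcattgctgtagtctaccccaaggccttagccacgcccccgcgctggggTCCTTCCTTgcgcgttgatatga
Rpl31 (chr1:39367791-39367870, plus strand): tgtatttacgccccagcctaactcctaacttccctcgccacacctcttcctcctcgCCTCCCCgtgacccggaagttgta
Rpl38 (chr11:114668520-114668599, plus strand): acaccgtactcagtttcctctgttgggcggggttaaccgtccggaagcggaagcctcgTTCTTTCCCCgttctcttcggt
Cct7 and Eif4g3, which fell without being ribosomal protein genes, are shown for contrast and hold no such run.
Cct7 (chr6:85451445-85451524, plus strand): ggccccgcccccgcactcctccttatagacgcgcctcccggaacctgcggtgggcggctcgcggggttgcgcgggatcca
Eif4g3 (chr4:137993395-137993474, plus strand): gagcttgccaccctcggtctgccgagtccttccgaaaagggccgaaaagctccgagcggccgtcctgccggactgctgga

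The run was present in 6.83% of the 10639 promoters matched to tested genes and in 19 of the 57 matched ribosomal protein promoters (33.3%). It was present in 6 of the 12 matched ribosomal protein promoters of genes that fell and in 13 of the 45 of genes that were not called (28.9%). A run was counted only where it covered the most upstream listed start. A gene that starts at another base can thus carry a run that was missed, and these shares cannot show which genes lack it. The letters CCGGAAG, the core of an ETS factor site, searched on both strands of the 250 bases before and 50 bases after the start, were in 17.7% of all promoters. They were in 23 of the 57 ribosomal protein promoters (40.4%), in 7 of the 12 that fell and in 16 of the 45 that were not called (35.6%). Among the 70 matched genes that rose the share was 10.0%, and that of the pyrimidine run was 12.9%. Other motifs were searched in the same windows. The NF-Y site was in 4 of the 12 that fell and 26.7% of the 45 that were not called. For the Sp1 site it was 6 and 62.2%. The E-box and CRE had 0 and 11.1%, and the TATA box, YY1 site and ribosomal protein Box 2 had 0 and 13.3%. The NRF1 site had 0 and 4.44%, and the Zfp143 site 0 in both. These are descriptions of letters in windows, and the measure of the pyrimidine run was chosen after fold changes had been seen.

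Rps24, a small-subunit protein gene (chromosome 14, 24487125 to 24496959), stood at 182 and 186 CPM in WT and 78.5 and 97.3 CPM in the clones. The groups were far apart, by -1.06 ± 0.12 on the log2 scale (SE, n = 2 per group; edgeR adjusted p = 0.0182). Rpl9, of the large subunit (chromosome 5, 65388364 to 65391444), stood at 55.0 and 57.6 CPM in WT and 16.4 and 26.0 CPM in the clones. Clone 1 was the lower of the clones, and the log2 fold change was -1.39 ± 0.20 (SE, n = 2 per group; edgeR adjusted p = 0.0249). Rpl36 had the largest log2 fold change of the class, -1.82, from a low level of 5.89 and 4.86 CPM in WT and 1.20 and 1.76 CPM in the clones (edgeR adjusted p = 0.0446). Rpl31 fell by 1.05, Rps18 by 1.15, Rpl38 by 1.17 and Rpl35 by 1.14 on the log2 scale.

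The smallest falls among the 17 were Rpl8 and Rpl37 (both -0.70), and the falls also included Rpl6, Rpl7, Rps3, Rps4x, Rps7, Rps14 and Rack1, a scaffold protein of the small subunit. The clones differed in size: the median over the 77 genes was -0.78 in clone 1 and -0.43 in clone 2, each against the WT mean. Without clone 1 none of the 77 passed the threshold, at a median of -0.44, and without clone 2 14 did, at -0.79. Under spike-in scaling 65 of the 77 fell, where 24.7% of all genes did. Many ribosomal protein genes have processed pseudogenes of near-identical sequence, and how the authors' counting divided such reads is not given in the sources used here.

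Falls extended to some factors that work with the ribosome. Of 49 translation factor genes, 3 fell, where 0.303% of all genes did, none rose, and the median was -0.15. Eif4g3, a scaffold of the cap-binding complex that starts translation (chromosome 4, 137993022 to 138208508), stood at 139.8 and 131 CPM in WT and 19.4 and 29.7 CPM in the clones. The difference, -2.44 ± 0.18 on the log2 scale (SE, n = 2 per group; edgeR adjusted p = 0.00710), followed only that of Actn2 among the 44 falls, and it was called under every alternative. Eef1g, a subunit of the complex that reloads elongation factor 1A with GTP (chromosome 19, 8967041 to 8978479), stood at 217 and 240.4 CPM in WT and 69.5 and 103 CPM in the clones (-1.40 ± 0.18, SE, n = 2 per group; edgeR adjusted p = 0.0206). Naca, which binds nascent chains at the ribosome, fell by 0.65. The related Eif4g1 and Eif4g2 had -0.21 and 0.08, and Eef1b2 and Eef1d, which encode other subunits of the complex of Eef1g, had -0.15 and -0.26, none of them called.

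The chaperonin CCT, which folds actin and tubulin, had 2 of its 8 subunit genes called lower, where 0.303% of all genes were, and none without clone 1. Cct7 (chromosome 6, 85451514 to 85468475) stood at 122 and 115 CPM in WT and 48.5 and 55.6 CPM in the clones (-1.18 ± 0.11, SE, n = 2 per group; edgeR adjusted p = 0.00752). Cct4 fell by 0.79, and the 8 values ran from -1.18 to 0.05 (Cct3), with a median of -0.40. Host genes of small nucleolar RNAs, whose introns yield guides for ribosomal RNA modification, had a median of -0.55 over 12 tested. All 12 values were below 0, and 1 gene, Snhg17, passed the test, at 91.2 and 95.1 CPM in WT and 51.8 and 48.3 CPM in the clones (-0.90 ± 0.11, SE, n = 2 per group; edgeR adjusted p = 0.0192). The median of the 12 was -0.35 without clone 1, with none called, and -0.85 without clone 2.

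Other parts of the translation apparatus were not called. The 52 genes of ribosome biogenesis factors had a median of -0.08, the 72 of mitochondrial ribosomal proteins 0.03 and the 19 aminoacyl-tRNA synthetases -0.13. Snrpb, a core Sm protein of the spliceosome, fell by 0.94, the 1 call among 31 spliceosome and SR protein genes (median -0.11). Outside that list, Sf3b3 fell as given above, and so did Rnps1, a splicing factor picked out after its value was seen, by 1.03 on the log2 scale.

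**Figure D2:**
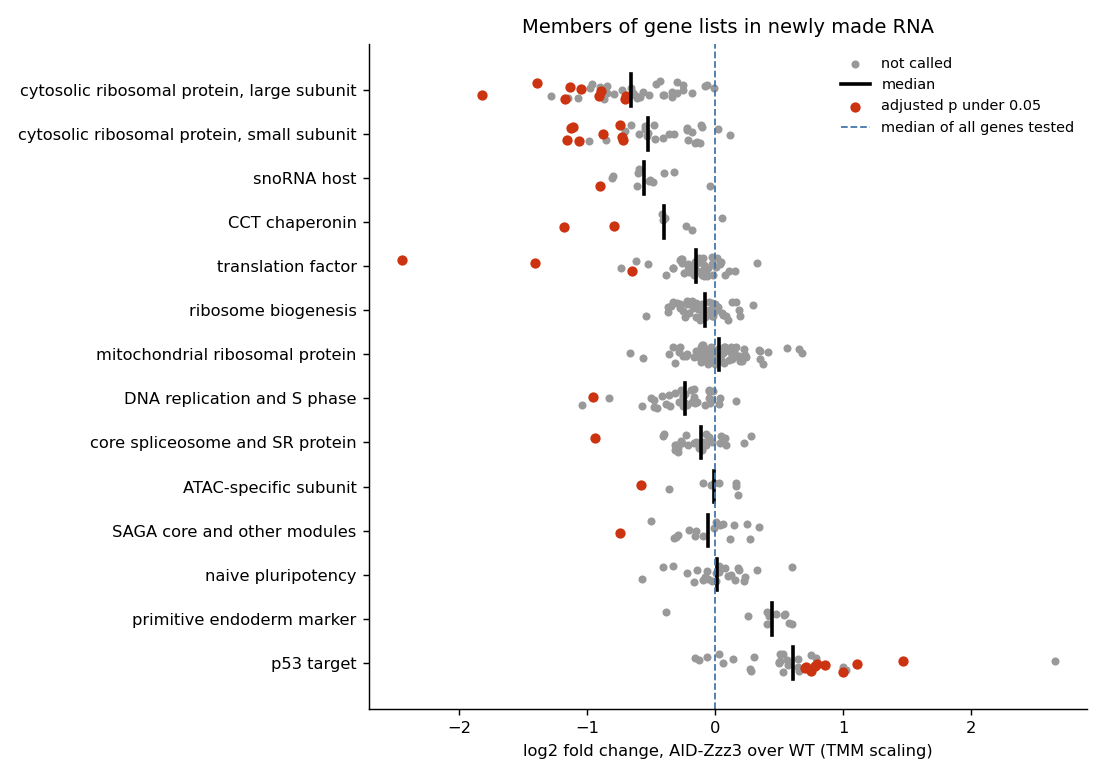
Log2 fold change of AID-Zzz3 over WT (x axis, TMM scaling) for every tested member of 14 gene lists (y axis); red points passed an adjusted p under 0.05, black bars are list medians and the dashed line is the median of all genes. Both ribosomal protein lists lie left of the line (medians -0.65 and -0.53) and the p53 targets right of it (median 0.61).

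Large falls were also seen outside these groups. Actn2, the actin crosslinker α-actinin 2 (chromosome 13, 12269426 to 12340760), stood at 16.2 and 21.7 CPM in WT and 3.59 and 2.90 CPM in the clones. This was the largest of the 44 falls, at -2.56 ± 0.24 on the log2 scale (SE, n = 2 per group; edgeR adjusted p = 0.00710). Ppp2r2a, a regulatory subunit of protein phosphatase 2A, stood at 688 and 513 CPM in WT and 245 and 276 CPM in the clones (-1.20). Dock3, an activator of the GTPase Rac, stood at 77.4 and 77.5 CPM in WT and 34.4 and 35.1 CPM in the clones (-1.16). The non-coding RNA gene Platr14, named for its link to pluripotency, fell from 80.7 and 69.9 CPM to 29.6 and 37.5 CPM (-1.16). In all 4 genes the clones lay below both WT lines, as the choice of genes required.

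Few cell cycle genes were called. Ccne2, cyclin E2, which drives entry into S phase, stood at 32.0 and 37.0 CPM in WT and 18.1 and 17.6 CPM in the clones (-0.95 ± 0.14, SE, n = 2 per group; edgeR adjusted p = 0.0285). It was the 1 call among 39 genes of DNA replication and S phase, whose median was -0.23 with 36 values below 0. Ccne2 was not called without clone 1 or without clone 2. Both clones lay below both WT lines for 26 of the 39, where 21.9% of all genes did. E2f3 (-0.63) and its partner Tfdp1 (-0.73), transcription factors of the same transition, also fell; they were picked out after their values were seen. The 29 genes of mitosis and spindle had a median of -0.09, with none called.

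Targets of p53, the transcription factor of the DNA damage response, were the group with most rises. Of 34 tested, 9 rose (0.681% of all genes did) and none fell, and the median was 0.61. Both clones lay above both WT lines for 26 of the 34, where 22.8% of all genes did. The median of WT replicate 2 against WT replicate 1 was 0.10. Trp53, the gene of p53 itself, had a log2 fold change of -0.07 (edgeR adjusted p = 0.845).

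Bbc3, which encodes the cell death protein Puma (chromosome 7, 16308393 to 16318205), stood at 4.78 and 4.11 CPM in WT and 12.6 and 12.1 CPM in the clones. The clones were alike, and the log2 fold change was 1.47 ± 0.21 (SE, n = 2 per group; edgeR adjusted p = 0.0227). Plk2, a stress-induced kinase, stood at 17.0 and 19.6 CPM in WT and 35.8 and 37.2 CPM in the clones (1.00). Ephx1, an epoxide hydrolase, stood at 14.3 and 17.3 CPM in WT and 32.6 and 35.4 CPM in the clones (1.11). Eda2r, a receptor of the tumour necrosis factor family, stood at 118 and 145 CPM in WT and 248 and 229.6 CPM in the clones (0.86). In each of these genes the lower clone exceeded the higher WT line by more than the gap within either pair. They were named as the called targets with the smallest p, a choice that favours such gaps.

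The other rises of the group were Mdm2, the ubiquitin ligase of p53 (0.71), Ccng1, cyclin G1 (0.80), Trp53inp1 (0.75), the lesion-bypass polymerase Polk (0.78) and the apoptosome protein Apaf1 (0.70). Fas, the death receptor gene, had the largest value of the list, 2.65, but at 0.512 and 0.187 CPM in WT and 1.92 and 2.60 CPM in the clones it missed the threshold (edgeR adjusted p = 0.0659). Both WT values of Fas lay under the filter cutoff of 0.88 CPM, so that it was tested only through the clones. Cdkn1a, the cell cycle inhibitor p21, had 0.50 (edgeR adjusted p = 0.106). The lowest values were Ddb2 at -0.16, Xpc at -0.12 and Sesn1 at -0.07. Without clone 1, and again without clone 2, none of the 34 passed, while the median was 0.56 and 0.59. Under spike-in scaling 8 rose and 1, Sesn1, fell, with a median of 0.24. Over all genes 0.888% rose and 24.7% fell under that scaling, with a median of -0.36. Mdm2 and Apaf1 then missed the threshold (adjusted p = 0.0516 and 0.0507, edgeR), and Fas passed it.

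The largest rises were in genes of low level that spanned many functions. Serpine2, a secreted protease inhibitor (chromosome 1, 79794197 to 79861180), stood at 5.29 and 4.76 CPM in WT and 25.1 and 21.3 CPM in the clones (2.20 ± 0.19, SE, n = 2 per group; edgeR adjusted p = 0.00710). Ptprt, a receptor tyrosine phosphatase (chromosome 2, 161521990 to 162661147), stood at 11.8 and 9.24 CPM in WT and 41.8 and 36.7 CPM in the clones (1.89 ± 0.17, SE, n = 2 per group; edgeR adjusted p = 0.00710). Both were called under every alternative, as Actn2 and Eif4g3 were. Cdhr2, a cadherin of microvilli, had 2 counts in both WT libraries together and 54 in the clones. It passed the count filter (cutoff 0.88 CPM) only through the clones, where it was high, with WT at 0.085 and 0.093 CPM. The ratio scaled to depth was 28.2, with an exact 95% interval of 7.44 to 239 that covers counting error only.

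Among other large rises, Gria3, a glutamate receptor subunit, stood at 5.89 and 5.32 CPM in WT and 22.3 and 18.0 CPM in the clones (1.84), and Hs3st4, which modifies heparan sulfate, at 12.3 and 7.47 against 45.4 and 38.7 CPM (2.08). Neb, the muscle filament protein nebulin, stood at 3.33 and 2.52 CPM in WT and 23.5 and 11.8 CPM in the clones (2.56), where clone 1 was the higher. The transcription factor genes Creb3l1 and Zfp750 rose by 1.79 and 2.14. The phospholipase gene Plcd4 rose by 1.91, the membrane protein gene Ms4a10 by 1.93, the carboxypeptidase gene Cpz by 1.76 and Lrmda by 1.73. Of non-coding genes, Pvt1, next to Myc on the chromosome, stood at 544 and 485 CPM in WT and 882 and 794 CPM in the clones (0.70). Ptprv, a phosphatase locus that the deposited annotation does not class as protein-coding, stood at 3.41 and 4.02 CPM in WT and 12.3 and 10.6 CPM in the clones (1.62).

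In the annotation deposited with the counts, 82 of the 99 genes that rose and 40 of the 44 that fell had a cellular component. Of those that rose, 47.6% were listed under membrane, beside 38.6% of the 11494 annotated genes tested. Of those that fell, 45.0% were listed under ribosome, beside 1.54%.

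**Figure D3:**
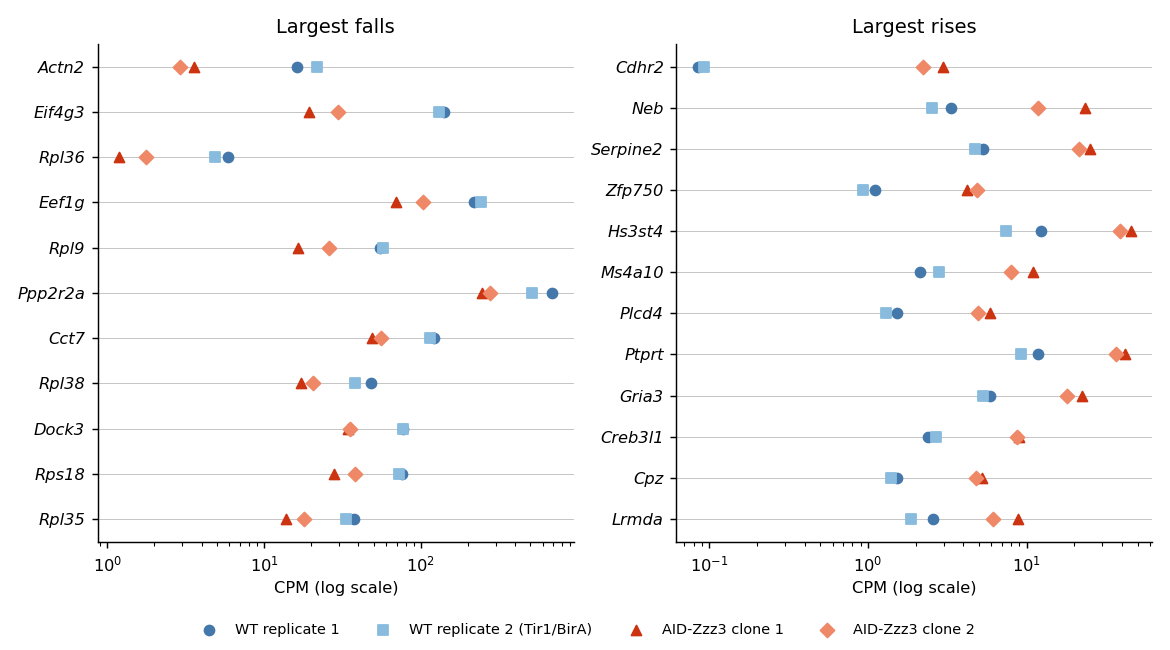
CPM on a log axis (x axis) in each of the 4 libraries for large falls (left) and the 12 largest rises (right) among named protein-coding genes (y axis). In every gene shown both AID-Zzz3 clones lie on the same side of both WT lines, as the choice of genes required; Eif4g3 falls from 139.8 and 131 to 19.4 and 29.7 CPM.

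Genes of cell identity were not called. The 26 naive pluripotency genes had a median of 0.01 and the 9 core pluripotency genes 0.11. The smallest p among the naive genes was that of Manba (-0.57, edgeR adjusted p = 0.0659), followed by Dppa5a (0.60, adjusted p = 0.299) and Spp1 (0.33, adjusted p = 0.361). Among the core genes Lin28a had 0.37, Sall4 0.19 and Stat3 0.11. The 10 tested primitive endoderm genes had a median of 0.45, and 0.08 under spike-in scaling. Over the same genes WT replicate 2 had a median of -0.34 against WT replicate 1. Leaving out WT replicate 1 gave a list median of 0.55, and leaving out WT replicate 2 gave 0.35. Both clones lay above both WT lines for 8 of the 10, where 22.8% of all genes did. The defining genes Gata6 and Gata4 stayed under 3 CPM in every library, Sox17 had at most 2 counts in a library, and the summed level of the list was lowest in clone 1. Replication-dependent histone genes had a median of 0.22 under TMM and -0.16 under spike-in scaling, and it was 0.48 without WT replicate 1 and -0.05 without WT replicate 2. The 7 mitochondrially encoded genes had 0.29 and -0.07 under the respective scalings, and no gene of either list was called. In all, 32 of the 42 lists had no called member (the 2-cell-like list had none tested), and 107 of the 143 called genes were in no list.

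Called genes differed in length by direction, given here as a description with no test. The median span from start to end was 67.0 kb for the 99 that rose, 11.0 kb for the 44 that fell and 26.7 kb for all genes tested. Of those that rose 43.4% spanned over 100 kb, beside 16.1% of all, and of those that fell 47.7% spanned under 10 kb, beside 22.4%. The 27 that fell and are no ribosomal protein genes had a median span of 36.5 kb. Of these 27, 14.8% spanned under 10 kb and 25.9% over 100 kb. The short span of the 44 falls was thus that of the ribosomal protein genes among them. Across all genes, the median log2 fold change was -0.02 up to 5 kb and 0.20 over 500 kb. Low genes also had higher values (0.15 for a mean log2 CPM under 2). Among genes with a mean log2 CPM of at least 4 the medians ran from -0.15 up to 5 kb to 0.07 over 500 kb. The medians of clone 1 and clone 2 over 500 kb were 0.24 and 0.10, and that of WT replicate 2 against WT replicate 1 was 0.00. Under spike-in scaling every span class had a median below 0, from -0.38 up to 5 kb to -0.16 over 500 kb.

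**Figure D4:**
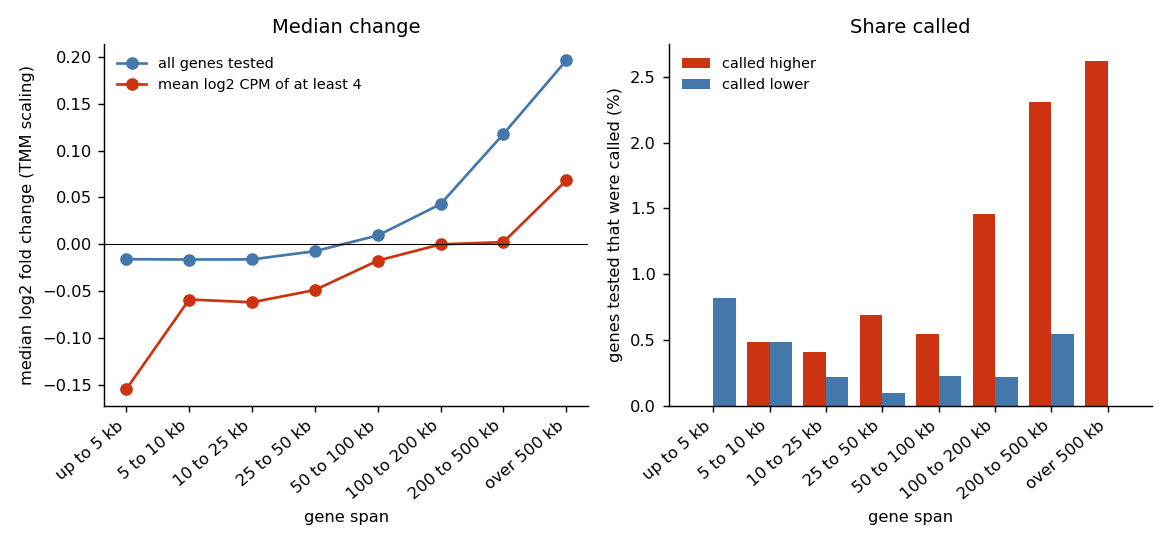
Left, median log2 fold change of AID-Zzz3 over WT (y axis, TMM scaling) by gene span (x axis), for all genes tested and for those with a mean log2 CPM of at least 4. Right, percent of genes tested that were called higher or lower (y axis, from 0) by gene span. Rises go from 0 to 2.62% and falls from 0.818 to 0% between the shortest and the longest class. Falls did not decline steadily, at 0.0989% for 25 to 50 kb and 0.543% for 200 to 500 kb.

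The AID-Yeats2 libraries of the series, another ATAC mutant with 2 clones sequenced in another project with its own 2 WT libraries, gave similar values for most of these genes. No library is shared by the comparisons, though the labels describe the WT lines alike. Of the 99 genes that rose in AID-Zzz3, 73 (73.7%) were also called higher in AID-Yeats2, where 2.3% of genes were, and they were 22.7% of the 322 called there. Of the 44 that fell, 39 (88.6%) were called lower, where 1.57% of genes were, and they were 17.7% of 220. The sign was shared by all 99 and by 42 of the 44, the exceptions being Zzz3 and the cadherin gene Cdh4. Eif4g3 had -2.44 in AID-Zzz3 and -2.37 in AID-Yeats2, Actn2 -2.56 and -2.82, Eef1g -1.40 and -1.49, Rpl9 -1.39 and -1.39, and Plk2 1.00 and 1.11.

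The difference between both effects was tested by fitting all 14 4sU libraries of the series together, over 15426 genes. At an adjusted p under 0.05 edgeR called 0 genes (0.0%), with 378 at an unadjusted p under 0.05, and the smallest adjusted p was 0.741. Over the 143 called genes the difference had a median size of 0.17 and a median standard error of 0.20 on the log2 scale, so differences within about 0.39 either way lay inside a typical 95% interval. For Eif4g3 the difference was -0.06, with an unadjusted 95% interval of -0.63 to 0.50, and for Rps24 0.06, from -0.24 to 0.36. The larger effect was in AID-Zzz3 for 104 of the 143, and 16 differed at an unadjusted p under 0.05, but the 143 were chosen for passing in AID-Zzz3, which favours larger values there. Examples with unadjusted intervals above 0 follow. Ptprt differed by 1.14 (0.54 to 1.73), Serpine2 by 0.92 (0.40 to 1.44) and Gria3 by 0.80 (0.34 to 1.26), none called after adjustment. Zzz3 differed by -0.62 (-0.83 to -0.40).

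The Supt7l-/- libraries, a knockout of a SAGA core subunit sequenced beside AID-Yeats2, shared few called genes with AID-Zzz3. Of the 99 that rose in AID-Zzz3, 7 (7.07%) were called higher in Supt7l-/-, where 0.647% of genes were, and they were 7.87% of the 89 called there. Of the 44 that fell, 2 (4.55%) were called lower, where 1.21% of genes were, and they were 1.20% of 166. The sign was shared by 84 of the 99, at a median of 0.31 in Supt7l-/-, and by 37 of the 44, at a median of -0.12. The effects differed for 192 genes in the same fit (edgeR), 125 in the higher direction (0.81%) and 67 in the lower (0.434%), and 61 of the 143 called genes were among them. The 143 were chosen for passing in the same AID-Zzz3 and WT libraries, which favours a difference here too. Eif4g3 had -0.29 in Supt7l-/- (difference -2.16 ± 0.28, SE; edgeR adjusted p = 0.0105), and the median over the 77 ribosomal protein genes was -0.12. The count of differing genes was 48 without WT replicate 1 of the AID-Zzz3 project, 511 without WT replicate 2, 61 without clone 1 and 338 without clone 2. AID-Tada3, a degron of a subunit shared by both complexes, came from another project with its own WT. There 5 genes were called, all lower (0.035%), and the medians were -0.13 over the 77 ribosomal protein genes and -0.08 over the 34 p53 targets.

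**Figure D5:**
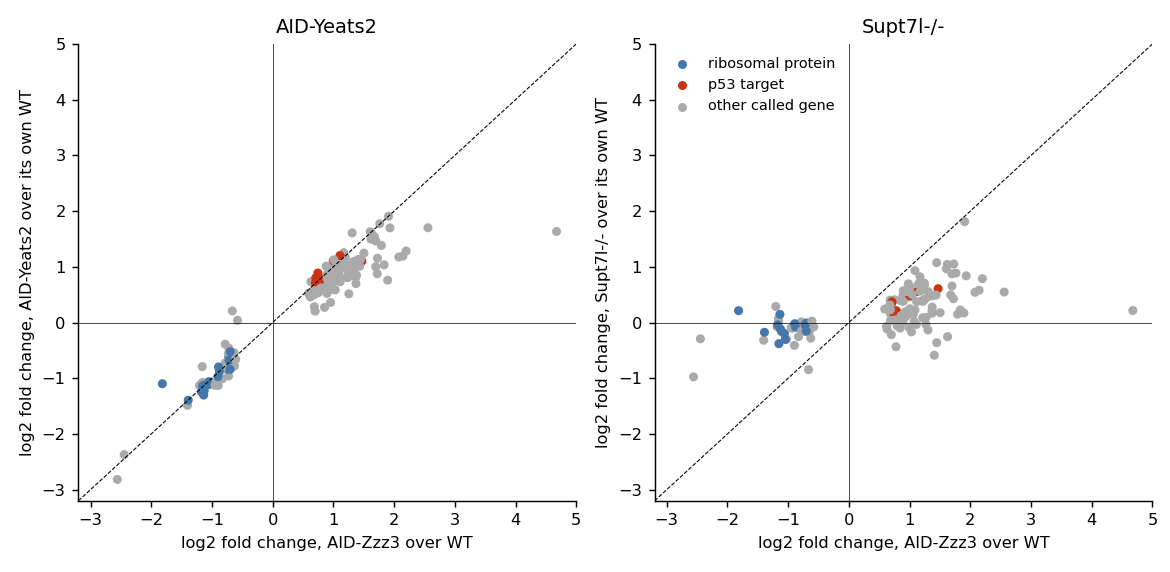
Log2 fold change of AID-Zzz3 over WT (x axis) against that of AID-Yeats2 (left) or Supt7l-/- (right) over its own WT (y axis) for the 143 called genes; the dashed line marks equal values and colours mark ribosomal protein genes and p53 targets. Genes lie near the line for AID-Yeats2 and nearer to 0 on the y axis for Supt7l-/-, where the ribosomal protein median was -0.12.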

How the data were processed

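The members and the gene lists were chosen with earlier results of these data known. All fits here rest on the raw count columns that the authors deposited for mouse and S. pombe genes. The authors' normalized signal (the count divided by 1 factor per library), log2 fold change and p-value columns were also deposited. The submitters' processing notes name the build mm10 and the tools Bowtie2 2.2.8, STAR 2.5.3a, DESeq2 1.16.1 and HTSeq 0.6.1p1; whether counting used strand is not given in the sources used here. The authors' factors were 0.897 and 0.901 in WT and 0.866 and 1.34 in the clones. Factors computed here from spike-in counts ran alike, at 0.916 and 0.919 in WT and 0.883 and 1.37 in the clones. At an adjusted p-value under 0.05 the authors' deposited table has 73 genes higher and 3082 lower. Most of these calls were falls, as with the 129 and 3584 of spike-in scaling and unlike those of TMM. The counts are not directly comparable, as that table covers 8634 tested genes and the fits here 14529. The median log2 fold change was -0.04 in that table and -0.36 under spike-in scaling. Of the 143 genes called under TMM, 103 were called in the same direction in the authors' table. Actn2 and Mdm2 missed that threshold there, at log2 fold changes of -0.52 and 0.33, and Bbc3 had no adjusted p-value.

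Genes passed filterByExpr (minimum count 10) and were tested with edgeR 4.0.16 in R 4.3.3 (quasi-likelihood, robust, TMM, Benjamini-Hochberg at 0.05), which gave each adjusted p of a gene. CPM used TMM library sizes. Single-clone medians used log2(CPM + 0.5). Spike-in scaling used 4930 S. pombe genes with at least 10 counts in each library. Named genes are Zzz3, its neighbours, called complex members, the 12 largest changes per direction (protein-coding, full symbol, at least 1 CPM, both clones beyond both WT libraries, same sign under spike-in scaling), 5 called non-coding genes, the called list members with the smallest p, and, against each other mutant, the 4 largest differences per direction. A few of these genes are not reported here. Further genes were named after their values were seen. Promoters came from RefSeq, at the most upstream start of each gene, and were matched by symbol. The fits were tried on simulated counts that gave every gene the same spread, so the uneven spread of real genes was not tried. The main fit recovered 16.7% of log2 changes of 0.58, 77.6% of those of 1 and 97.0% of those of 2. For the difference from AID-Yeats2 it was 12.9, 51.4 and 95.3%, so most small differences would be missed.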

Additional observations from a re-analysis of the deposited data

Results flagged for a closer look

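The effect of AID-Zzz3 differed from that of Supt7l-/- (each against its own WT, joint edgeR fit, adjusted p under 0.05) for the named genes below. Each value below is the AID-Zzz3 effect minus the Supt7l-/- effect on the log2 scale, and the causes of the differences were not tested. Most of these genes were named for passing in AID-Zzz3, which favours a difference.

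Among ribosomal protein genes it was -2.04 for Rpl36, -1.29 for Rpl35, -1.22 for Rpl9, -1.14 for Rpl38, -0.87 for Rps24, -0.84 for Rpl7, -0.75 for Rpl31 and -0.61 for Rack1. Of the other genes that fell in AID-Zzz3, it was -2.16 for Eif4g3, -1.59 for Actn2, -1.50 for Ppp2r2a, -1.24 for Platr14, -1.19 for Dock3, -1.12 for Cct7 and -0.74 for Cct4. It was -0.84 for Snrpb, -0.63 for Sf3b3 and -0.51 for Zzz3. Of the genes that rose, it was 1.71 for Ptprt, 1.60 for Gria3, 1.40 for Serpine2, 0.72 for Eda2r and 4.46 for Cdhr2, the last resting on 2 WT counts.

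Zfp775 (-2.84) and Anxa3 (-2.10), an annexin gene, were not called in AID-Zzz3. Anxa3 stood at 30.0 and 21.8 CPM in Supt7l-/- and 4.09 to 10.6 CPM in the 4 libraries of AID-Zzz3 and its WT.

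The other 4 genes lie on the Y chromosome and were near 0 in both Supt7l-/- libraries. Uty stood at 0.453 and 0.105 CPM there, with a difference of 10.31. Ddx3y had 0 counts there against 2243 in WT of the same project, at least 677-fold higher in WT against a limit of 3 counts over the group, and Uba1y 0 against 49, at least 14.8-fold. Eif2s3y had 2 against 1570, a ratio of 711 with an exact 95% interval of 197 to 5877.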

How the results depend on the processing

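Against 99 rises and 44 falls, the counts were 436 and 321 with no filter, 154 and 98 in DESeq2, 325 and 258 in the joint fit and 3584 falls under spike-in scaling. Leaving out a library gave 12 to 288 rises and 2 to 176 falls. The 17 ribosomal protein genes that fell became 65 under spike-in scaling, 47 with no filter, 10 when a gene needed 50 counts in each library of a group, 32 in DESeq2 and 40 in the joint fit, and 0 to 25 with a library left out. The 9 p53 targets that rose became 20 with no filter and 19 in the joint fit, and 0 to 13 with a library left out. Genes whose effect differed from that of Supt7l-/- numbered 315 under spike-in scaling and 48 to 511 with a library left out. Against AID-Yeats2 spike-in scaling gave 2, 1 in each direction. With no filter 26949 genes were tested, and with at least 50 counts 10081; otherwise the cause was not tested.

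Of the 42 named called genes, 38 lost the call without clone 1 and 23 without clone 2, and at most 5 under each other alternative, where 4 more were not tested with the minimum of 50 counts and 1 had no adjusted p in DESeq2. The log2 difference in new RNA per spike-in ran from -0.43 to -0.30 with a library left out. Genes not called changed sign as follows. Under spike-in scaling Spp1 had -0.043, Sall4 -0.18, Stat3 -0.26, Ak5 -0.27 and St6galnac3 -0.34. St6galnac3 had -0.0053 with DESeq2 size factors and in DESeq2 and -0.013 with no filter. With a library left out St6galnac3 ran from -0.052 to 0.075, Ddx3y from -1.12 to 0.12, Ak5 from -0.30 to 0.69, Gm43859 from -0.25 to 0.23 and Uba1y from -0.65 to 0.52.

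No paired analysis was possible because the clone numbers of AID-Zzz3 have no counterpart in WT, whose 2 libraries are different lines. With 2 libraries a group, an uncalled gene is not shown to be unchanged, and intervals from counts cover counting error only.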
